A study of Mus musculus with 6 samples.

Results

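The 9 genes described here are Ube2l3, Bloc1s1, Cds2, Nfe2l1, Zbtb20, Rprd1b, Cited4, Tspan2 and Scin, taken from 14455 gene symbols measured in mouse LSK cells. They were picked by name as accessory genes, taken to lie outside the blood lineage programmes. They were picked for some of the largest ratios between young Setd2 knockout (KO) and young wild-type (WT) cells. Their young difference is therefore a description and carries no test. Whether they lie outside those programmes was not tested. LSK cells are bone marrow cells without lineage markers and with Sca-1 and c-Kit, where the stem cells and earliest progenitors of blood lie, and here they were sorted from C57BL/6 mice. RNA was sequenced from 4 groups with 1 library each: Setd2 KO at 4 weeks after pI-pC injection (young KO), WT at 4 weeks after it (young WT), Setd2 KO at 8 months (old KO) and WT at 8 months (old WT). All groups, the WT ones included, are labelled by their time after pI-pC, the double-stranded RNA used to switch on the deletion. No driver of the deletion, deleted exons, ages of the animals or numbers of animals per library are stated in the sources used here. Since each group is a single library, replicates cannot set an error, no p-value or SD is given, and every difference describes these libraries alone.

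Setd2 encodes the enzyme that places the trimethyl mark on lysine 36 of histone H3 along transcribed genes, travelling with RNA polymerase II. The 9 genes share no single pathway. Ube2l3 and Nfe2l1 act in protein turnover, Bloc1s1 in lysosomes, Cds2 in phospholipid synthesis, Zbtb20, Rprd1b and Cited4 in transcription, and Tspan2 and Scin at the membrane and the actin cytoskeleton.

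Levels are given as scaled FPKM, that is fragments per kilobase of transcript, scaled by the authors to the size of the library, and here multiplied by a factor of 0.940 to 1.02 that brings the libraries to a common median. Each file listed 13173 to 13318 symbols, all at 0.5 FPKM or more. A difference is KO minus WT of log2(scaled FPKM + 1), so that changes of low genes come out too small, and 2-fold means a difference of at least 1 on it. From the spacing of low values, an FPKM of 1 on 1 kb of transcript corresponded to 9.04 counted units in young KO, 9.57 in young WT, 18.1 in old KO and 17.9 in old WT. Counting intervals below rest on these units, cover counting error only, and take no account of duplicate reads. Those of young ratios surround values that the choice of the genes used, so they are no support for a change. Setd2 itself stood at 12.4 in young KO and 14.1 in young WT and at 15.5 in old KO and 15.3 in old WT, a gene-level value that does not check the labels, since RNA outside the deleted exons is counted too. The sort genes Kit and Ly6a (Sca-1) were listed in all 4 libraries, Kit at 41.1 to 61.0 and Ly6a at 3.17 to 8.80. Xist was listed only in the old libraries, at 279 in old KO and 291 in old WT, so young and old also differed in sex, and age, sex and library batch cannot be told apart. The 12 erythroid markers were all higher in young KO than in young WT, with a summed level of 645 against 262, and 8 of 12 were lower in old KO than in old WT, at 155 against 240. The summed level of 8 plasma cell markers was 206 in old KO and 2170 in old WT. All 7 monocyte markers measured in old cells were higher in old KO than in old WT, with a summed level of 389 against 88.9, and so were all 10 neutrophil markers, at 1821 against 963. The part of such cell mixtures in the results below was not tested, and fewer cells of a type and less RNA per cell cannot be told apart in bulk RNA.

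All 9 genes were listed in all 4 libraries and passed the filter in both comparisons, which asks that the higher of the 2 libraries reach a scaled value of 1. In young cells 4 of them were at least 2-fold higher in KO, where 1.02% of 12409 genes were, and 5 were at least 2-fold lower, where 0.701% were. This is what they were chosen for. In old cells none of the 9 reached 2-fold in either direction, where 4.3% of 12478 genes did (1.63% higher and 2.66% lower). The choice names young ratios only, but earlier results of these data were known when it was made. The old values may therefore not be independent of it. Of the 4 genes higher in young KO, Tspan2 and Scin were also above 0 in old KO and Rprd1b and Cited4 were below it. Of the 5 lower in young KO, Bloc1s1 and Cds2 were also below 0 in old KO, and Ube2l3, Nfe2l1 and Zbtb20 were above it. With 50.3% of all genes above 0 and 49.7% below in old cells, 4 of 9 genes with the same sign is near the background. The median size of the difference was 1.61 over the 9 genes in young cells and 0.24 in old cells, against 0.17 and 0.19 over all measured genes.

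**Figure D1:**
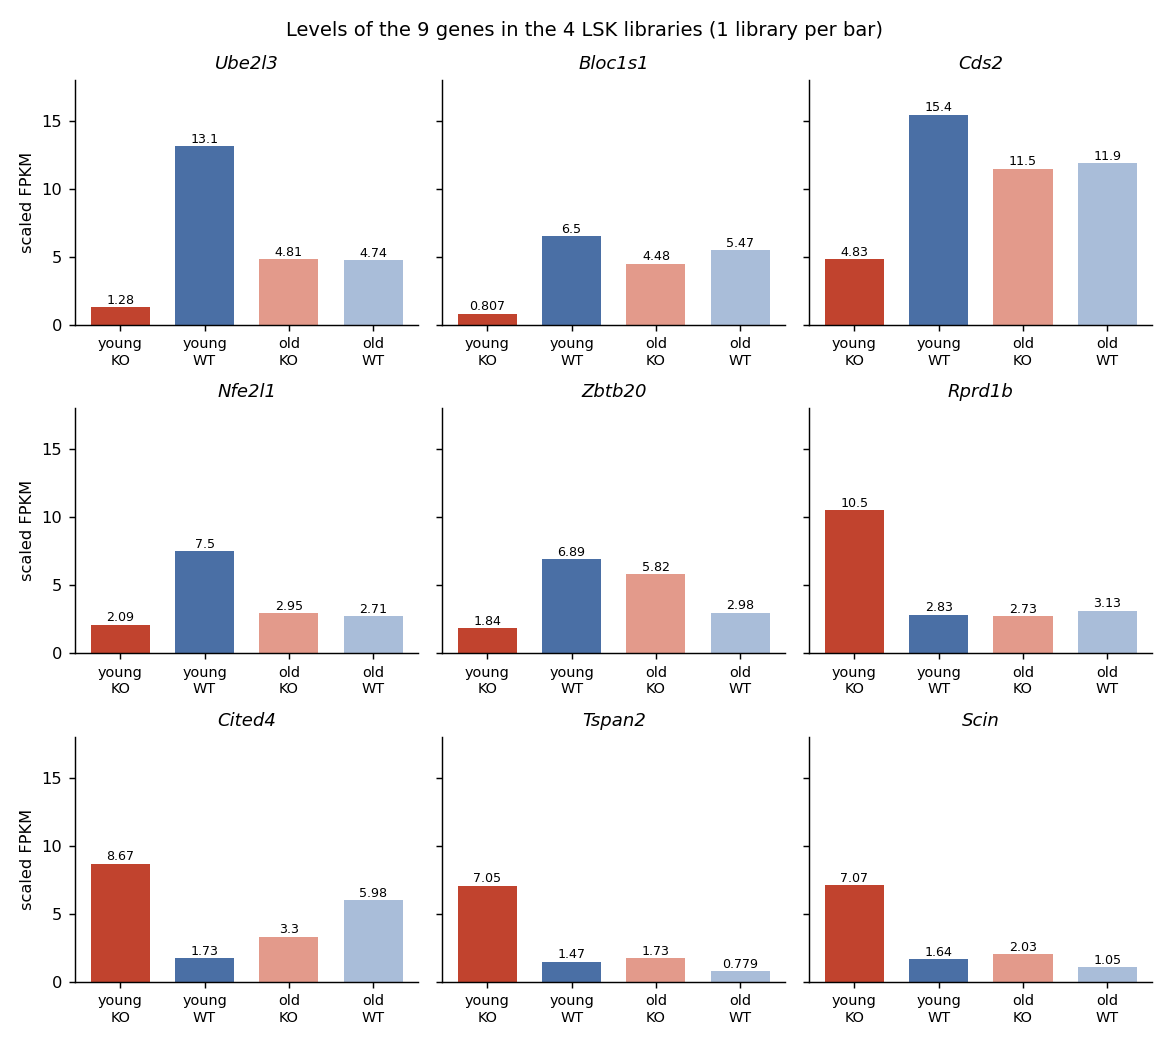
Scaled FPKM of each of the 9 genes in young KO, young WT, old KO and old WT LSK cells, 1 library per bar and no error bars because groups have no replicates. On the log2 scale, young KO stands farthest from the other libraries for 7 genes and young WT for Nfe2l1 and Cited4. The choice of the genes on their young values favours this.

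**Figure D2:**
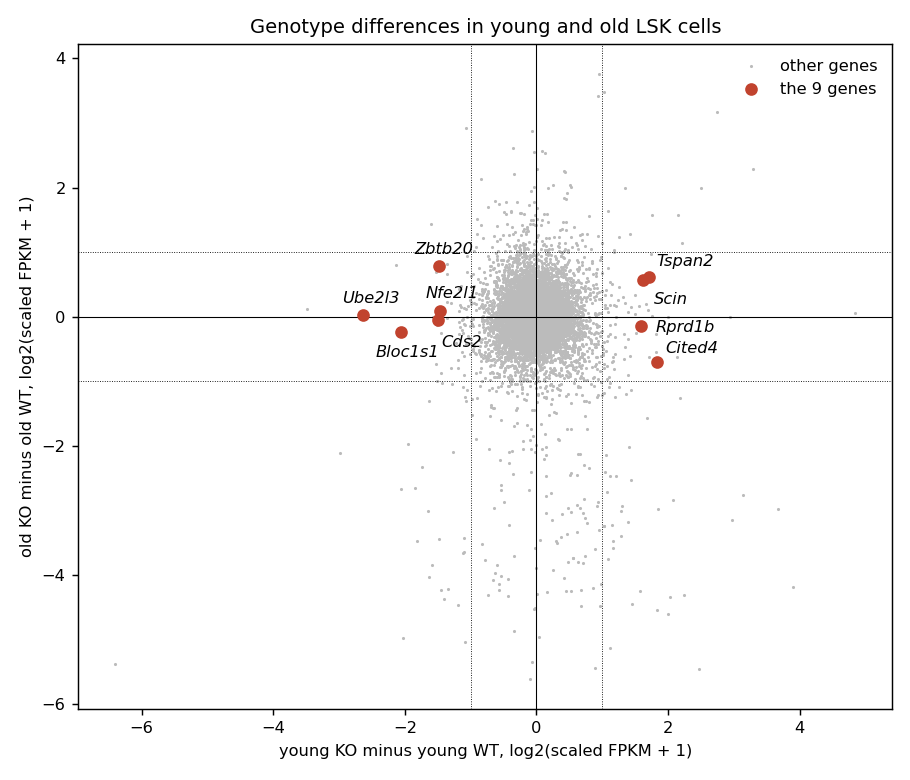
Difference between KO and WT on the log2(scaled FPKM + 1) scale in young cells (horizontal) and old cells (vertical) for all genes measured in both, with dotted lines at 2-fold. The 9 genes, in red, lie past 2-fold on the young axis and within 2-fold on the old axis.

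On the log2(scaled FPKM + 1) scale, the library farthest from the median of the other libraries was, for 7 of the 9 genes, young KO, and for the other two, Nfe2l1 and Cited4, it was young WT. Neither old library was the farthest for any of them. The bar plot of levels shows that for 6 genes both old values lay between young KO and young WT. Choosing the 9 genes for large young differences favours both patterns, so they describe the choice and are no separate result.

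Ube2l3 (ENSMUSG00000038965, chromosome 16, 17152013 to 17202649, mm10) encodes UbcH7, a ubiquitin-conjugating enzyme that hands ubiquitin to ligases of the HECT and RBR classes. It stood at 1.28 in young KO and 13.1 in young WT, and at 4.81 in old KO and 4.74 in old WT. Young WT was thus the high library and young KO the low one, with the old pair between them. The young difference was -2.63, the 4th largest fall among all measured genes, and the old difference was 0.019, which turned to -0.0043 under upper-quartile scaling. For a transcript of 1 kb the ratio of young KO to young WT, 0.0977, would have a 95% counting interval of 0.0476 to 0.180, and the ratio of old KO to old WT, 1.02, one of 0.742 to 1.39. A longer transcript would narrow both.

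Among the 31 other measured E2 enzymes, 1 was 2-fold higher and none lower in young KO, with a median of 0.07. The higher one was Ube2l6, the E2 most used for conjugating the ubiquitin-like protein ISG15, at 7.04 in young KO and 2.66 in young WT and at 7.26 in old KO and 5.57 in old WT. In old KO 1 of 31 was lower, Ube2v2, a catalytically inactive partner of Ube2n, at 0.520 in old KO and 2.43 in old WT. The 14 measured RBR ligases and LUBAC subunits, several of which use UbcH7, had none past 2-fold at either age, with medians of 0.12 in young and -0.09 in old cells. Arih1, an RBR ligase, stood at 34.4 in young KO and 31.5 in young WT.

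Nfe2l1 (ENSMUSG00000038615, chromosome 11, 96817414 to 96829968) encodes a bZIP factor held in the membrane of the endoplasmic reticulum that is released to switch on proteasome genes when the proteasome is inhibited. It stood at 2.09 in young KO and 7.50 in young WT, and at 2.95 in old KO and 2.71 in old WT. Only young WT was high, and the other 3 libraries lay between 2.09 and 2.95. The difference was -1.46 in young and 0.092 in old cells. Its 35 proteasome genes, which that factor is known to induce, had none past 2-fold at either age, with medians of 0.06 and 0.01 and a range of -0.25 to 0.34 in young cells. Psmb1, a core particle subunit, stood at 80.0 in young KO and 70.0 in young WT. The 7 other measured CNC and small Maf factors and the 9 measured genes for its release and degradation had none past 2-fold either. Nfe2l2, its stress-responsive relative, stood at 15.6 in young KO and 17.2 in young WT, and Ddi2, the protease that cleaves it, at 18.2 and 14.9 in the same libraries.

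Bloc1s1 (ENSMUSG00000090247, chromosome 10, 128917882 to 128924035) encodes a small subunit shared by BLOC-1, which builds lysosome-related organelles, and BORC, which positions lysosomes. It stood at 0.807 in young KO and 6.50 in young WT, and at 4.48 in old KO and 5.47 in old WT. Young KO alone was low, and the other libraries lay within 1.45-fold of each other. The difference was -2.05 in young and -0.24 in old cells. At 1 kb of transcript the young ratio of 0.124 would have a counting interval of 0.0481 to 0.270. The old ratio of 0.819 would have one of 0.601 to 1.12, which includes 1. A shorter transcript would widen both, and transcript lengths were not used here. None of the 12 other subunits of the complexes was past 2-fold at either age, with medians of -0.05 and -0.01. Bloc1s2, another shared subunit, stood at 11.9 in young KO and 12.9 in young WT and at 30.1 in old KO and 17.7 in old WT. Dtnbp1, the dysbindin subunit of BLOC-1, stood at 18.2 and 19.5 in young KO and young WT.

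The bases before the start of Ube2l3 and Bloc1s1, which had the largest falls, are shown as 250 bases upstream of the RefSeq start on GRCm38.p6, 5′ to 3′ on the strand of the gene. Both windows lie inside the loci given above, whose upstream ends lie before these RefSeq starts. Capitals mark matches on either strand to 9 motifs: AGATAA (letters of a GATA factor site), TGACNNNGC (of the site of Nfe2l1 and its relatives), CCAAT (of NF-Y), CCGGAAG (of ETS factors), CAGCTG (an E-box), TGTGGT (of RUNX factors), TATAAA (the TATA box), GGGCGG (of Sp factors) and TCACGTGA. Matches of different motifs may overlap. TCACGTGA, the centre of the motif bound by the lysosomal regulator TFEB, was added after the Bloc1s1 sequence had been read, and 0.785% of 32851 promoter windows of this length hold it.
Ube2l3, chr16:17201493-17201742, minus strand: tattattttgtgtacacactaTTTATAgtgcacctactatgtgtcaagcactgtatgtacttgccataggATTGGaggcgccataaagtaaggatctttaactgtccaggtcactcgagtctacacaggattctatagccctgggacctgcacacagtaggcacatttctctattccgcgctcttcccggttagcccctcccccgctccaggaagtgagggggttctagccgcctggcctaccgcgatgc
Bloc1s1, chr10:128923525-128923774, minus strand: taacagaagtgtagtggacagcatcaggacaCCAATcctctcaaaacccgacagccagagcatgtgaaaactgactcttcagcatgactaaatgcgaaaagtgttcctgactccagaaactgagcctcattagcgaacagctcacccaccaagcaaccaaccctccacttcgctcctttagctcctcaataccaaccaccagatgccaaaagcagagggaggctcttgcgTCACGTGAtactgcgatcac

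The Ube2l3 window holds CCAAT, found in 33.8% of windows, and TATAAA, found in 12.4%, and the Bloc1s1 window holds CCAAT and TCACGTGA. Neither holds AGATAA, the letters of a GATA site, which 9.99% of windows do. Their CpG pairs numbered 9 and 7, against a median of 6 over all windows. A match is a string of letters and no evidence that a factor binds there.

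Cds2 (ENSMUSG00000058793, chromosome 2, 132263148 to 132312050) encodes a CDP-diacylglycerol synthase, which makes the precursor of phosphatidylinositol. It stood at 4.83 in young KO and 15.4 in young WT, and at 11.5 in old KO and 11.9 in old WT. Young KO was again the low library, with the others within 1.35-fold of each other. The difference was -1.49 in young and -0.045 in old cells. Of 36 other measured genes of CDP-diacylglycerol and phosphoinositide metabolism, 1 was 2-fold lower and none higher in young KO, with a median of -0.02. This was Pip5k1c, which makes phosphatidylinositol bisphosphate, at 6.28 in young KO, 15.0 in young WT, 14.5 in old KO and 15.1 in old WT, so it too was low in young KO alone. In old KO none of the 36 was past 2-fold. Plcg2, the phospholipase with the highest level in the list, stood at 54.0 in young KO and 57.1 in young WT.

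Zbtb20 (ENSMUSG00000022708, chromosome 16, 42875881 to 43642602) encodes a transcriptional repressor with a BTB domain and zinc fingers that B cells and plasma cells, among others, use. It stood at 1.84 in young KO and 6.89 in young WT, and at 5.82 in old KO and 2.98 in old WT. Its old pair thus ran against its young pair, with differences of -1.48 in young and 0.78 in old cells, the latter the largest old difference among the 9 genes. At 1 kb of transcript the old ratio of 1.95 would have a counting interval of 1.39 to 2.78. Old WT, where plasma cell markers were highest, was the second lowest library for Zbtb20. The part of plasma cells in the Zbtb20 values was not tested. Of 38 other BTB zinc finger genes measured in young cells 1 was 2-fold higher, and so was 1 of 37 in old cells. It was Zbtb6 in both, at 5.13 in young KO and 1.28 in young WT and at 3.96 in old KO and 1.04 in old WT.

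Rprd1b (ENSMUSG00000027651, chromosome 2, 158028497 to 158132297) encodes CREPT, which binds the phosphorylated tail of RNA polymerase II and brings phosphatases to it. It stood at 10.5 in young KO and 2.83 in young WT, and at 2.73 in old KO and 3.13 in old WT. Young KO alone was high and the other 3 libraries agreed within 1.15-fold, the closest of any of the 9 genes. The difference was 1.59 in young and -0.15 in old cells. None of the 22 other measured genes of tail binding, kinases and phosphatases was past 2-fold at either age, with medians of 0.07 in young and 0.06 in old cells. Polr2a, the polymerase subunit that carries the tail, stood at 43.0 in young KO and 43.3 in young WT. The paralogues Rprd1a, at 5.56 and 6.12, and Rprd2, at 11.4 and 10.8, were close in the same libraries.

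Cited4 (ENSMUSG00000070803, chromosome 4, 120666572 to 120667820) encodes a co-activator that binds CBP and p300 and has no DNA-binding domain. It stood at 8.67 in young KO and 1.73 in young WT, and at 3.30 in old KO and 5.98 in old WT. The order of the old pair was the reverse of the young pair, with differences of 1.82 in young and -0.70 in old cells. Its locus is 1249 bp, and on that length its deposited values came to 96.0, 22.0, 73.0 and 131 counted units in young KO, young WT, old KO and old WT, each within 0.1 of a whole number. The ratio of KO to WT was 5.01 with a 95% counting interval of 3.13 to 8.37 in young cells, and 0.553 with one of 0.409 to 0.741 in old cells. Both intervals leave out 1, on opposite sides of it, and neither holds the error between animals. The young one surrounds a ratio that the choice of the gene used. The old one may not be independent of the choice either, since earlier results of these data were known. All 12 erythroid markers were higher in young KO than in young WT, and 8 of 12 were lower in old KO than in old WT. Klf1 was 1 of these, at 28.7 in young KO and 12.3 in young WT and at 12.4 in old KO and 20.6 in old WT. The other 4, Hbb-bs, Hbb-bt, Slc4a1 and Alas2, were higher in old KO, with Hbb-bs at 28.1 in old KO and 12.2 in old WT. The part of erythroid cells in the Cited4 values was not tested. The partners of Cited4 had none past 2-fold at either age, among 4 measured in young and 5 in old cells. Ep300, which encodes p300, stood at 17.0 in young KO and 15.9 in young WT, and Cited2, another member of the family, at 33.9 and 24.3.

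**Figure D3:**
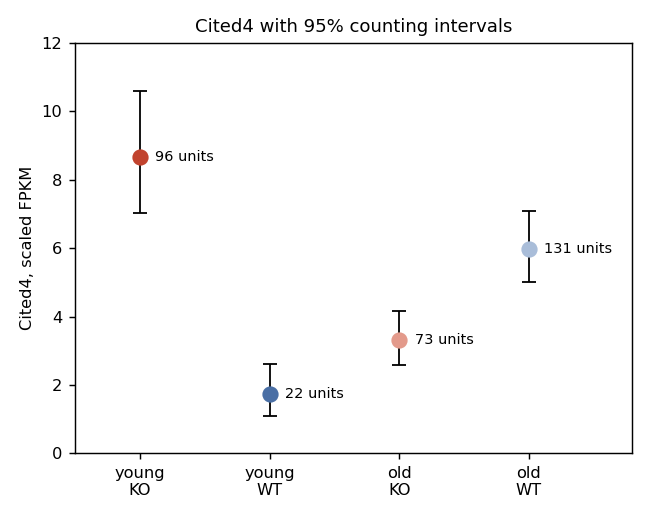
Scaled FPKM of Cited4 in each library with its exact 95% Poisson interval from the counted units printed beside each point, covering counting error only. Young KO (96 units) lies above young WT (22), and old KO (73) lies below old WT (131) in scaled FPKM, and the intervals of each pair do not overlap. The gene was chosen on its young values, so the gap between the young intervals is no support for a change.

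Tspan2 (ENSMUSG00000027858, chromosome 3, 102734529 to 102801513) encodes a tetraspanin, one of a family of membrane proteins that organise other proteins into microdomains. It stood at 7.05 in young KO and 1.47 in young WT, and at 1.73 in old KO and 0.779 in old WT. KO was the higher library at each age, though old KO lay close to young WT. The difference was 1.70 in young and 0.62 in old cells, or 1.05 in old cells with a pseudocount of 0.1. The plain ratio of old KO to old WT was 2.21, with a counting interval of 1.14 to 4.51 at 1 kb of transcript. Of the other tetraspanins 1 of 18 measured in young cells and 1 of 19 in old cells was 2-fold lower and none was higher. It was Tspan6 in both, at 2.44 in young KO and 6.21 in young WT and at 1.34 in old KO and 4.79 in old WT. The abundant leukocyte tetraspanin Cd53 stood at 122 in young KO and 137 in young WT.

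Scin (ENSMUSG00000002565, chromosome 12, 40059769 to 40134228) encodes scinderin, a calcium-dependent protein of the gelsolin family that severs and caps actin filaments. It stood at 7.07 in young KO and 1.64 in young WT, and at 2.03 in old KO and 1.05 in old WT. The order of its 4 libraries was that of Tspan2. The difference was 1.61 in young and 0.56 in old cells, and the ratio of old KO to old WT, 1.93, had a counting interval of 1.07 to 3.61 at 1 kb of transcript. Tspan2 and Scin were the most alike pair of the 9 genes, with a distance of 0.15 between their centred log2 profiles over the 4 libraries. Megakaryocyte markers were listed because platelets are known to use Scin. Of these, 2 of 6 were above 0 in young KO, with a median of -0.14, and none of 5 measured was above 0 in old KO. Of the 12 erythroid markers, all higher in young KO, 4 were also higher in old KO (Hbb-bs, Hbb-bt, Slc4a1 and Alas2) and 8 were lower. The part of megakaryocytes or erythroid cells in the Tspan2 and Scin values was not tested. None of 17 other genes of actin severing and capping was past 2-fold at either age, with medians of -0.06 in young and 0.23 in old cells. Cfl1, which encodes cofilin, stood at 280 in young KO and 298 in young WT and at 427 in old KO and 343 in old WT.

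Upstream windows are shown for Tspan2 and Scin, the pair alike in all libraries, and for Cited4, whose old pair ran the other way, drawn and marked as above.
Tspan2, chr3:102734520-102734769, plus strand: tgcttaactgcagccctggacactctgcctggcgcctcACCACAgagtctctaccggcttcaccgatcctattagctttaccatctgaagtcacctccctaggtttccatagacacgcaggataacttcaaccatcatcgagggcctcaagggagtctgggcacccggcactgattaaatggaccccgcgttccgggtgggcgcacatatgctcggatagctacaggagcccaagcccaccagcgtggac
Scin, chr12:40134229-40134478, minus strand: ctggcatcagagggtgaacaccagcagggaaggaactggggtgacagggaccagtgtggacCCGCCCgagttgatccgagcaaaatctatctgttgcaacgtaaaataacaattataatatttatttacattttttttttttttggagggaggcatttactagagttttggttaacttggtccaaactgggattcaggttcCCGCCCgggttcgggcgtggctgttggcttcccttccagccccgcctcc
Cited4, chr4:120666313-120666562, plus strand: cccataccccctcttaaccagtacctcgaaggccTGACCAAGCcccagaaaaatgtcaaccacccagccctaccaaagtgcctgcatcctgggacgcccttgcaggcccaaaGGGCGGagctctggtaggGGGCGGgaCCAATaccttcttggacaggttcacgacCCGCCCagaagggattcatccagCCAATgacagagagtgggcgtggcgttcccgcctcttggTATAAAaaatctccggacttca

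Tspan2 and Scin shared none of the 9 motifs: the Tspan2 window holds TGTGGT, the letters of a RUNX site, which 14.0% of windows do, and the Scin window holds GGGCGG at 2 places. The Cited4 window holds GGGCGG at 3 places, CCAAT at 2, and TATAAA and TGACNNNGC once each, where 32.7% of windows hold GGGCGG and 10.2% hold TGACNNNGC. None of the windows of the 9 genes holds AGATAA. RefSeq gives 2 windows for Tspan2, of which the one with the lower coordinates is shown, 2 for Cds2 and 5 for Nfe2l1. The Tspan2 window shown lies almost wholly inside the locus given for that gene. The gene-level values do not separate these starts.

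Reads of overlapping genes can be split between them, and the sources used here do not say whether counting used strand. Within 10 kb of the 9 loci the files listed 12 other genes, 5 of them overlapping a locus, for 4 of the 9 genes. None of the 9 neighbours measured in young cells was past 2-fold there. Rdh5, a retinol dehydrogenase gene, overlapped 81.4% of the Bloc1s1 locus and stood at 1.58 in young KO and 0.668 in young WT, a difference of 0.63 against -2.05 for Bloc1s1. It stood at 0.649 in old KO and was not listed in old WT. Ydjc overlapped 17.2% of the Ube2l3 locus and stood at 1.96 in young KO and 2.42 in young WT. The predicted gene Gm15648 lies within the Ube2l3 locus and stood at 0.725 in young KO and 1.77 in young WT, lower in KO like Ube2l3. Tgm2, a transglutaminase gene, overlapped 15.3% of the Rprd1b locus and stood at 9.41 in young KO and 6.58 in young WT and at 6.24 in old KO and 9.54 in old WT. BC002163 lies within the Zbtb20 locus, of which it covers 0.0416%. It stood at 4.59 in young KO and 6.77 in young WT and at 18.3 in old KO and 25.5 in old WT. Levels of Ube2l3, Bloc1s1, Zbtb20 and Rprd1b are therefore less certain than those of the other genes. The share of the locus overlapped was largest for Bloc1s1 and smallest for Zbtb20. How reads were shared was not tested.

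Neighbours without overlap changed little in young cells. Pcna, the replication clamp gene beside Cds2, stood at 83.1 in young KO and 81.7 in young WT, Cd63, beside Bloc1s1, at 36.3 and 35.5, Cbx1, beside Nfe2l1, at 12.3 and 11.4, and Tti1, which ends 63 bases before Rprd1b, at 7.11 and 6.21. Ccdc116 and AV099323 stayed under 1 in all libraries that listed them. Tigit, an inhibitory receptor gene of T and NK cells beside Zbtb20, was the 1 of 8 neighbours measured in old cells that was past 2-fold, at 1.41 in old KO and 5.21 in old WT, and it was not listed in the young libraries. Cited4, Tspan2 and Scin had no other listed gene within 10 kb.

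In all, the 12 lists of relatives held 249 genes found in the files. In young KO 2 of 243 measured were 2-fold higher and 2 lower, or 1.65%, where 1.72% of all genes were. In old KO 1 of 244 was higher and 2 lower, or 1.23%, where 4.3% of all genes were. The median difference of the relatives was 0.05 in young and 0.01 in old cells, against 0.00 in both over all genes.

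**Figure D4:**
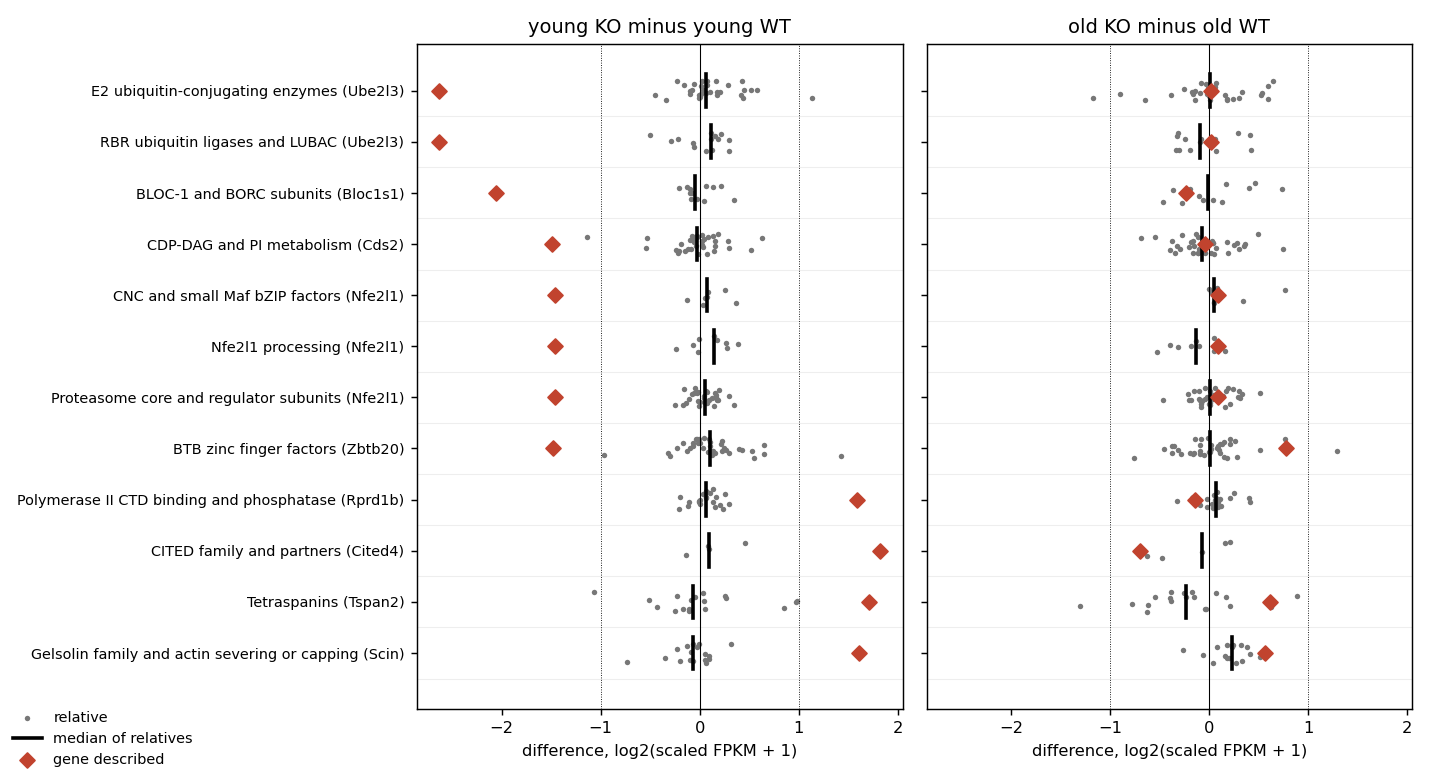
Difference between KO and WT on the log2(scaled FPKM + 1) scale for the measured relatives of each gene (grey points, vertical jitter only), their median (black bar) and the gene itself (red diamond), in young cells (left) and old cells (right), with dotted lines at 2-fold. The diamonds lie outside their relatives in young cells, and in old cells within or close to their range. The choice of the genes on their young values favours this, so it is no separate result.

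The nearest profiles over the 4 libraries, by the smallest distance, were looked for among 10589 other genes. Sec22c, Cisd3 and Zscan2 were the nearest 3 to both Ube2l3, at distances of 0.83 to 0.98, and Cds2, at 0.11 to 0.18, and Cisd3 and Zscan2 with the tubulin gene Tubb6 were nearest to Bloc1s1, at 0.45 to 0.59. Cisd3, which encodes an iron-sulfur protein of mitochondria, stood at 1.50 in young KO and 5.84 in young WT and at 4.18 in old KO and 5.21 in old WT. Nearest to Nfe2l1 were Ugt1a5, Ugt1a2 and Jmjd8, at 0.30 to 0.32, of which the Ugt1a genes share exons and are uncertain. Nearest to Zbtb20 were Bex6, Ier3ip1 and Gpr21, at 0.38 to 0.47, and Ier3ip1 stood at 3.42 in young KO and 7.58 in young WT and at 7.74 in old KO and 3.33 in old WT.

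Among the genes higher in young KO, nearest to Cited4 were Epdr1, the importin gene Kpna1 and Cpox, an enzyme of heme synthesis, at 0.49 to 0.50. Cpox stood at 42.7 in young KO and 18.1 in young WT and at 20.9 in old KO and 31.8 in old WT. Nearest to Rprd1b were Zfp12, the erythroid membrane protein gene Rhag and Ncoa4, the receptor that delivers ferritin to the lysosome, at 0.26 to 0.37. Ncoa4 was also the nearest gene to Tspan2 and to Scin, at 0.56 and 0.44, and stood at 6.29 in young KO and 2.24 in young WT and at 2.06 in old KO and 1.71 in old WT. Next to Tspan2 came Dleu2 and the histone gene Hist2h3c1, a near-identical copy of others and so uncertain, and next to Scin came Zfp12 and the actin-nucleation gene Arpc4. The measure uses the young values that chose the 9 genes, and 4 libraries leave many genes at such distances.

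Levels between ages used the same libraries as the comparisons above and are given for orientation. From young to old WT the largest differences were -1.30 for Ube2l3, -1.20 for Nfe2l1, -0.99 for Zbtb20 and 1.35 for Cited4. From young to old KO 8 of the 9 genes differed by more than 1 in size and all of them in the direction opposite to their young KO difference, between -1.63 for Rprd1b and 1.60 for Bloc1s1, with Nfe2l1 at 0.36. Genes chosen for extreme young values tend to lie nearer the middle in other libraries, so the choice favours this direction and it is no separate result. For comparison, of 121 genes that were 2-fold higher in young KO and measured in old cells, 43 (35.5%) were above 0 in old KO, and of 83 that were 2-fold lower, 59 (71.1%) were below 0.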

How the data were processed

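Total RNA sequencing of sorted LSK cells gave 4 libraries, each made from 100 ng of RNA according to the labels' protocols. The 2 bisulfite samples were not analysed here. The deposited values are 1 FPKM per gene, per the file headers, for genes at 0.5 or more. The submitters' processing notes name StringTie 1.3.0, HISAT2 2.0.4 and mm10 (GRCm38) without saying what each was used for.

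Values were summed by symbol (18 date-like symbols were restored by gene ID) and divided by median-of-ratios factors from the 10935 genes that reached an FPKM of 1 in every library. Unlisted genes were set to 0.5. With 1 library per group there is no replicate test. A gene was measured in a comparison at a scaled value of 1 or more in 1 of its 2 libraries. The calling steps were also run on simulated libraries with counting error only and large changes planted in chosen genes. Those genes stood higher than Rprd1b, Cited4, Tspan2 and Scin did in young WT, and no variation between animals was simulated. That run checks the computation and not the calls in these libraries.

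The 9 genes, the gene lists and the rule for named genes were chosen with earlier results of these data known, so the lists are no independent support. The rule named the 9 genes, every listed gene within 10 kb, relatives past 2-fold or else the 3 most abundant, and the 3 genes with the nearest profile (Euclidean distance of centred log2 values, leaving out predicted, pseudogene, small RNA, mitochondrial and antigen receptor genes). Psmb1, Rprd1a, Rprd2, Klf1, Nfe2l2, Ddi2 and the windows to print were chosen after their values were seen.

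Counted units came from FPKM times length of loci under 1500 bp. Of these products, 61.0% to 71.3% lay within 0.02 of a multiple of 1 step. Chance gives 4% for a step fixed beforehand. The step with the highest share was taken, so 4% is too low for it. A unit was taken as 2 steps in young and 1 in old libraries, because 0.806% and 1.28% of multiples were odd in young KO and young WT, against 58.8% and 55.1% in old KO and old WT. Ratio intervals are exact (Clopper-Pearson). Promoter windows are RefSeq's, on GRCm38.p6, and all 9 genes matched by symbol. Python 3.11.15, pandas 2.3.3 and scipy 1.17.1 were used. Alternatives were no scaling, upper-quartile scaling, pseudocounts of 0.1 and 5, unlisted genes at 0 and 2 other filters.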

Additional observations from a re-analysis of the deposited data

Results flagged for a closer look

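For 5 of the 9 genes the KO and WT libraries stood in opposite order at the 2 ages, and the difference between ages was not tested, since each group is 1 library. Zbtb20 differed by -1.48 in young and 0.78 in old cells, and Cited4 by 1.82 and -0.70. For Rprd1b, at 1.59 and -0.15, Nfe2l1, at -1.46 and 0.092, and Ube2l3, at -2.63 and 0.019, the old value was smaller in size than the 0.19 that is the median size over all genes in old cells. Cited4 is the one of these for which the counting intervals came from its own counted units. The intervals of its ratios were 3.13 to 8.37 in young and 0.409 to 0.741 in old cells. Because the gene was chosen on its young ratio, the gap between these intervals is no test of a difference between ages.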

How the results depend on the processing

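No difference of the 9 genes that was past 2-fold changed sign under any alternative. A pseudocount of 5 brought 6 young differences under 2-fold, to -0.99 for Bloc1s1, -0.82 for Nfe2l1, -0.80 for Zbtb20, 0.99 for Rprd1b, 0.90 for Tspan2 and 0.86 for Scin, because it shrinks low values by construction. A pseudocount of 0.1 took Tspan2 in old cells to 1.05, so that 1 of the 9 genes was then called in the young direction. The old difference of Ube2l3 was -0.0043 with upper-quartile scaling. With a value of 5 or more required, 4 of the 9 genes were left in old cells, and 2 of them had the young sign. Without scaling the median of all genes in young cells was -0.10, and no call among the 9 changed. Counts over all genes moved more. In young cells 361 genes were higher and 273 lower with a pseudocount of 0.1, 32 and 12 with 5, 228 and 178 with unlisted genes at 0, and 81 and 44 at a value of 5 or more. In old cells 433 were higher and 639 lower with a pseudocount of 0.1, 54 and 207 with 5, 332 higher with unlisted genes at 0 and 123 higher at a value of 5 or more. No paired analysis was possible because each group has 1 library. Depth limits Bloc1s1 most, at 7 counted units per kb in young KO.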
